A study of Mus musculus with 16 samples.

Results

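Cardiomyocytes collected after pressure overload were compared between mouse hearts that had received a virus carrying PRODH and hearts that had received the empty vector. The comparison takes 8 of the 16 RNA-seq libraries of the study, 4 labelled AAV9-PRODH, TAC and 4 labelled AAV9-Vector, TAC, and all genes that passed a filter on low counts, 14066 of 57010 gene models. All animals were C57BL/6 mice, with a genotype given as PRODH Overexpression in the first group and WT in the other. Adeno-associated virus 9 (AAV9), a gene carrier that enters heart muscle well, was injected first. Transverse aortic constriction (TAC), an operation that ties the aortic arch to a smaller width and so raises the pressure the left ventricle works against, followed 3 weeks later. Heart tissue was taken 4 weeks after the operation and adult cardiomyocytes were isolated from it. The other 8 libraries, 4 per virus, came from sham-operated mice and were used for the shared estimate of spread and for the test of whether the 2 viruses differed equally after sham and TAC. The design text calls the overexpression cardiac-specific. The promoter in the virus, the species of its PRODH sequence, the age and sex of the mice and any pooling of animals are not stated in the labels. The labels do not tie the libraries of a group to separate animals, so each p-value here reflects library-to-library spread, part of which may be technical.

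Proline dehydrogenase, the product of Prodh, sits at the inner mitochondrial membrane and oxidises proline, handing the electrons to the respiratory chain. A second enzyme, Aldh4a1, turns the product into glutamate, which can enter the citric acid cycle. Pressure overload is known to switch the adult ventricle towards fetal contractile genes, to lower genes of fatty acid oxidation, calcium cycling and repolarising currents, and to activate fibroblasts that lay down matrix.

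Total counts ran from 17015194 to 20033529 in vector TAC and from 20264070 to 22680185 in PRODH TAC. Genes of the mitochondrial genome and their nuclear copies took 53.2% to 55.9% and 54.7% to 55.7% of them, which left 7512105 to 9379557 and 9189331 to 10218384 counts for all other genes. The first principal component of the 8 libraries held 59.5% of the variance and set the groups apart, from -38.5 to -27.7 for vector TAC and from 31.2 to 36.4 for PRODH TAC. The second component spread the vector TAC libraries, with library 2 the farthest out, at 32.9, against 3.10 for library 1, -19.96 for library 3 and -11.4 for library 4. Library 2 was also the highest in mt-Nd4, a mitochondrial gene, with 33662 CPM (counts per library after scaling all libraries to one total) against 25952, 20080.2 and 22058 in libraries 1, 3 and 4. Libraries 3 and 4 lay together on the other side of both measures. List counts of 5 or more that move by over 1.5 times without library 2, or without libraries 3 and 4 together, are given with that value. The summed level of 14 cardiomyocyte markers was 42842 to 45563 CPM in vector TAC and 45089 to 50530 in PRODH TAC. In the sham libraries it was 58665 to 64401 CPM with the vector and 56696 to 64063 with PRODH. How pure the isolated cells were was not tested. Of these markers 5 were higher and 2 lower with PRODH (median log2 fold change 0.02).

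Summed markers of other heart cells were lower in PRODH TAC. Their summed level in vector TAC and PRODH TAC was 1420 to 1604 and 432 to 556 CPM for 18 fibroblast genes. For 20 endothelial genes it was 1493 to 1752 and 1085 to 1254 CPM, and for 25 myeloid genes 604 to 666 and 307 to 374. For 14 mural genes it was 2170 to 2504 and 1531 to 1711. The mural list includes Des, which is also in the adult sarcomere list and had the largest fall of both (-0.76). How much of the mural sum is Des was not tested. Smaller sums, which include genes too low to be tested, fell the same way. They were 17.7 to 20.4 and 11.6 to 14.1 CPM for 15 lymphoid genes, of which 4 were tested. For 10 red cell and platelet genes, 6 of them tested, they were 229.8 to 308 and 111 to 127 CPM. For 15 genes of glia, mesothelium and fat the sum was 15.4 to 17.0 and 9.80 to 13.2 CPM. Of the 7 tested among them 4 were lower and 1, the fat gene Cfd, was higher at 1.42 log2 (0 higher and 1 lower without vector TAC libraries 3 and 4). This sum pools several cell types and does not give the direction of each. The 2 groups did not overlap in any of these sums, and no marker was at 0 in all 8 libraries. In such bulk samples fewer cells of a type and less RNA per cell cannot be told apart. How far these cells take part in the matrix, endothelial and immune results below was not tested.

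Prodh (ENSMUSG00000003526), the mouse gene model of the enzyme named in the virus label, was measured first. It had 8.38, 6.19, 8.23 and 6.34 CPM in the 4 vector TAC libraries and 13.4, 12.3, 14.7 and 14.2 CPM in the 4 PRODH TAC libraries. Every PRODH library lay above every vector library. The log2 fold change was 0.90 ± 0.10 (SE, n = 4 per group), with an adjusted p of 2.19e-08 (edgeR quasi-likelihood test, Benjamini-Hochberg over 14066 genes), the test used throughout. The sham libraries had 10.9, 11.1, 10.4 and 11.5 CPM with the vector and 12.6, 14.3, 13.5 and 14.8 CPM with PRODH. How much of the virus transcript is counted in the mouse gene model was not tested.

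A gene is called higher or lower here when that adjusted p is under 0.05. Of all tested genes 6059 (43.1%) were called, 2603 (18.5%) higher and 3456 (24.6%) lower in PRODH TAC. The median log2 fold change of all genes was -0.04. With a fold threshold of 1 log2 added, 373 genes (2.65%) were higher and 709 (5.04%) lower. In 2345 genes (16.7%) all PRODH libraries lay above all vector libraries, and in 3182 (22.6%) they all lay below. With so many genes called, a list of genes is described by its counts beside these shares and by its median. All lists were chosen with earlier results of these data known. A share of a list above that of all genes is therefore a description and not a test.

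The 2 ends of the comparison held different kinds of genes. Taking genes with a mean of 5 CPM or more, a standard symbol and groups that do not overlap, 8 of the 15 largest rises belonged to the interferon-stimulated list, led by Ifit1. The other 7 were Ddx60 (3.08 ± 0.15, log2 ± SE), Klhl33, Ces1d, Gpr22, Lrrc15, Phkg1 and Zfp970. Of the 15 largest falls, all but Myh7, Serpina3n and Syn3 encode proteins of the matrix or secreted proteins that act in it, led by Comp at -5.09 ± 0.15. Serpina3n encodes a secreted protease inhibitor. Syn3, a synapsin gene, had 1 vector library far above the rest, with 5.15, 24.4, 3.83 and 7.15 CPM in vector TAC and 1.17, 0.702, 1.62 and 2.01 CPM in PRODH TAC. That library enlarged the difference, but the other vector libraries also lay above all PRODH libraries. Its counts were fractional in all 16 libraries, as arises when reads are divided between similar sequences. The plot of 20 gene lists shows the same split across whole lists.

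**Figure D1:**
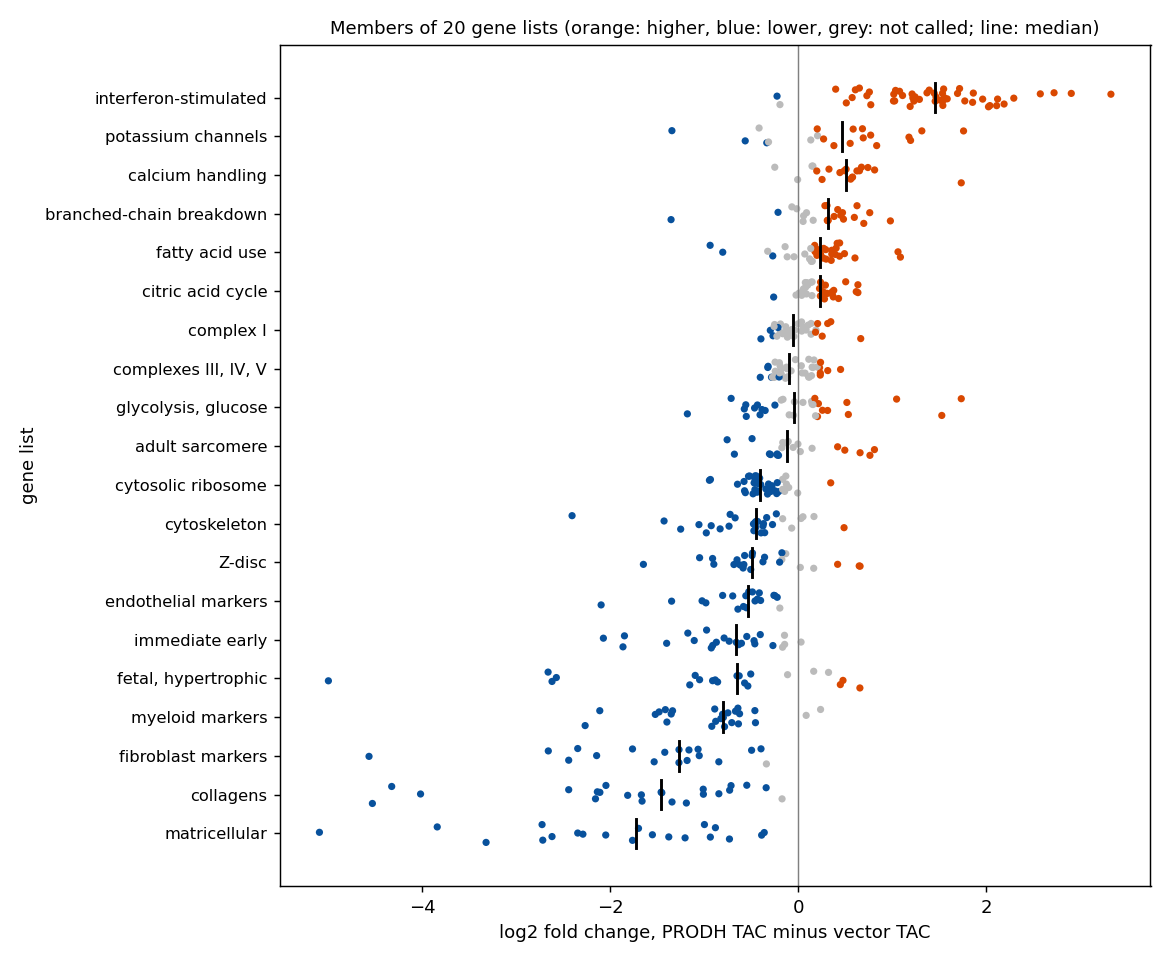
Each point is the log2 fold change of a gene (PRODH TAC minus vector TAC, x axis) in 1 of 20 gene lists (y axis), orange if called higher, blue if called lower and grey if not called, with a black line at the list median. Interferon-stimulated genes lie to the right with a median of 1.45, matricellular genes and collagens to the left with medians of -1.73 and -1.46, and both respiratory chain lists sit close to 0.

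Interferon-stimulated genes were higher in PRODH TAC almost as a block. Of 51 measured members 49 were higher and 1 was lower, with a median log2 fold change of 1.45, against 18.5% and 24.6% of all genes and a median of -0.04. These genes encode sensors of foreign nucleic acids, the transcription factors that relay interferon signals, and proteins that block viral replication. They are known to be switched on by factors that bind a short element called ISRE in their promoters.

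Ifit1 (ENSMUSG00000034459), which encodes a protein that binds viral RNA lacking a host cap mark, had 6.68, 5.56, 4.25 and 5.64 CPM in vector TAC and 55.3, 55.8, 58.2 and 53.9 CPM in PRODH TAC. The PRODH libraries lay close together and far above the vector ones. Its log2 fold change of 3.32 ± 0.11 (SE, edgeR adjusted p = 1.26e-20) was the largest by this rule. In the sham hearts Ifit1 had 3.13, 3.30, 3.32 and 2.75 CPM with the vector and 13.1, 16.4, 11.1 and 14.3 CPM with PRODH, so both PRODH groups lay above both vector groups. Irf7, the factor that amplifies type I interferon production, had 13.7, 12.6, 16.4 and 16.6 CPM in vector TAC and 69.9, 75.1, 68.4 and 76.3 CPM in PRODH TAC. These 2 sets do not overlap, and the difference was 2.29 ± 0.08 (adjusted p = 3.44e-19).

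The members described next are given by role. Among sensors, Ifih1, which encodes the long double-stranded RNA sensor MDA5, differed by 1.39 ± 0.12, Rigi by 1.24 ± 0.09 and Zbp1, which senses left-handed nucleic acid, by 2.12 ± 0.17. The relay factors stood at 1.22 ± 0.10 for Stat2 and 1.03 ± 0.08 for Irf9. Effectors with large differences were Ifi44 (2.72 ± 0.12), the dynamin-like GTPase gene Mx2 (2.90 ± 0.19) and Ifit2 (1.96 ± 0.10). Usp18, which removes the ubiquitin-like protein ISG15 from its targets and damps the receptor, had 3.96, 4.68, 4.46 and 3.58 CPM in vector TAC and 26.3, 25.7, 23.6 and 23.6 CPM in PRODH TAC. No library of one group reached the other, and the difference was 2.57 ± 0.10 (adjusted p = 3.29e-18). Isg15 itself differed by 2.11 ± 0.13. All of these were called at an adjusted p of 3.76e-10 or less. Ifit3 (2.02) and Ifit3b (2.19), like Oas1a (1.45) and Oas1g (1.85), are near copies of each other, and all 4 had fractional counts in all 16 libraries, so the split between the copies is uncertain.

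There were 2 exceptions. Igtp, an immunity-related GTPase, was the member called lower, with 44.4, 46.0, 46.5 and 45.6 CPM in vector TAC and 39.5, 37.3, 39.3 and 39.7 CPM in PRODH TAC. All 4 PRODH libraries lay just below the vector ones, at -0.23 ± 0.07 (adjusted p = 0.00655), a call lost when libraries were scaled by size alone (-0.18, adjusted p = 0.0571). Irf1, a factor induced by interferon-gamma, was not called (-0.20 ± 0.10, adjusted p = 0.0975) and its groups overlapped. The related GTPases Irgm1 and Irgm2 were higher by 0.75 and 0.57, at the lower end of the list.

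**Figure D2:**
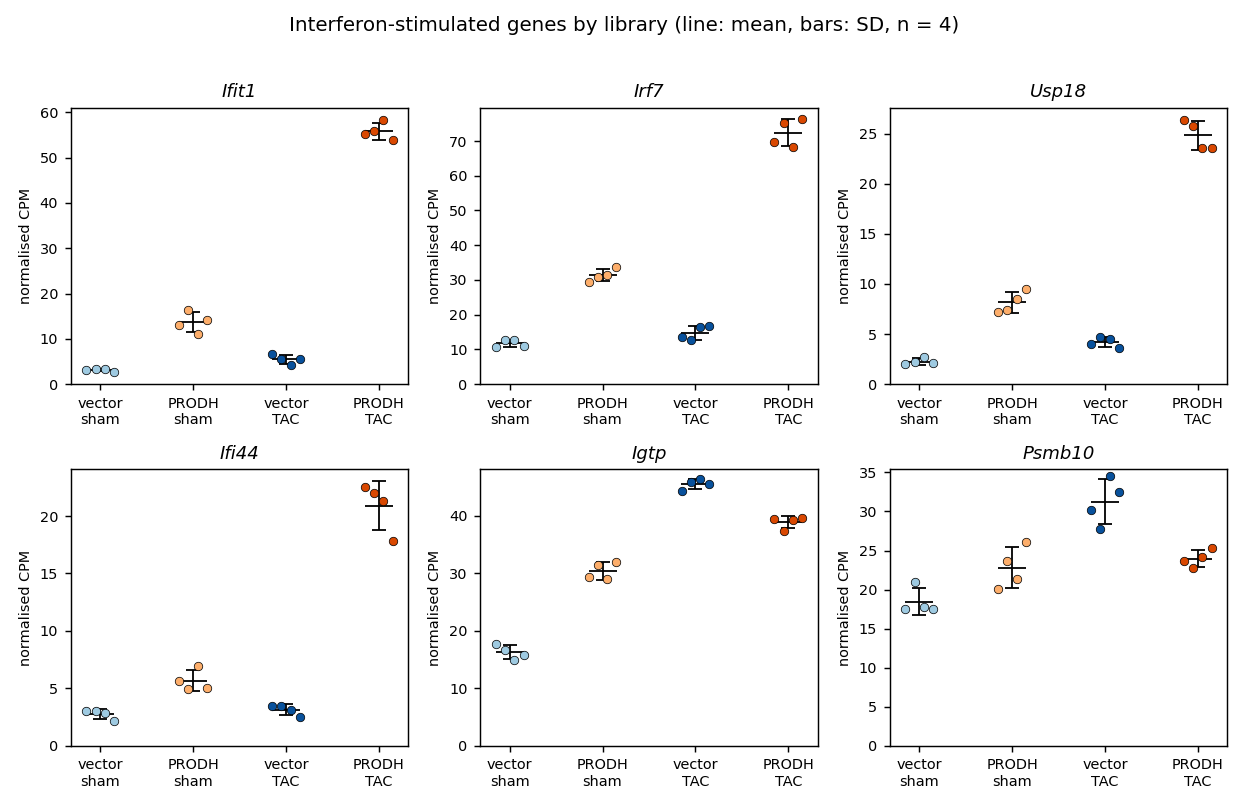
Normalised CPM (y axis, from 0) of 6 genes in each of the 16 libraries by virus and operation, with the mean and SD of 4 libraries. Ifit1, Irf7, Usp18 and Ifi44 are highest in PRODH TAC, with Ifit1 at 53.9 to 58.2 CPM against 4.25 to 6.68 in vector TAC, while Igtp and Psmb10 are highest in vector TAC.

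The promoters of these genes were read for the ISRE letters, GAAA, then 2 bases of any kind, then GAAA, on either strand, in the 250 bases before the start of the gene (RefSeq, GRCm38.p6). Of the 49 members called higher 35 have an entry in that table, and 18 of these (51.4%) hold the letters. Of all 51 tested members 37 have an entry, and 19 of these (51.35%) hold the letters, so the share was the same for the list as a whole. The letters occur in 3.46% of all 27025 promoters, in 4.57% of those of all genes called higher and in 3.08% of those called lower. The list was chosen as interferon targets, so its share describes the list and not the difference with PRODH. A match is a description of the letters and does not show that a factor was bound. The stretches below are shown because they carry the letters, in capitals, of genes described above, read on the gene's own strand. Ifit1 is at chr19:34640755-34640843 on the plus strand, Isg15 at chr4:156200845-156200926 on the minus strand, Ifit3 at chr19:34583343-34583446 on the plus strand, Stat2 at chr10:128270248-128270315 on the plus strand and Gbp3, a guanylate-binding protein gene, at chr3:142559969-142560043 on the plus strand.
Ifit1: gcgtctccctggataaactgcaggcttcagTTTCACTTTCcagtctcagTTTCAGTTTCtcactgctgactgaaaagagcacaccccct
Isg15: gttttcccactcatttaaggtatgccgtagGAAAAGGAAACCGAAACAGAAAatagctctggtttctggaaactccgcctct
Ifit3: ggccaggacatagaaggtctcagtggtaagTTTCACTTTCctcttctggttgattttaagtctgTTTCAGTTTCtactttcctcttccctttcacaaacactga
Stat2: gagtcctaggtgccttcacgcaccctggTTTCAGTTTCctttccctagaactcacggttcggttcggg
Gbp3: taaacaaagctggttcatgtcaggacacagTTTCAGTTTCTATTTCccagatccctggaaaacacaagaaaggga
Ifit1 and Ifit3 hold 2 separate matches. In Isg15 the capitals join 3 overlapping matches and in Gbp3 they join 2. The genes so marked differed by 3.32, 2.11, 2.02, 1.22 and 1.69 on the log2 scale, in the order printed.

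Antigen presentation by MHC class I, another interferon target, was higher only in part. Of 17 members 6 were higher and 1 lower (median 0.15). Nlrc5, the activator of class I genes, differed by 0.97 ± 0.14, and H2-Q7, a class I gene with reads shared with its neighbours, by 0.83 ± 0.08. The classical heavy chain genes H2-K1 and H2-D1 and the light chain gene B2m were not called (-0.02, -0.18 and 0.02). Psmb10, an immunoproteasome subunit, was lower, with 30.2, 27.8, 34.5 and 32.5 CPM in vector TAC and 23.6, 22.8, 24.2 and 25.3 CPM in PRODH TAC. Its groups did not overlap (-0.38 ± 0.08, adjusted p = 5.31e-04). Fitted with an offset for gene length, 10 members of the list were higher and 1 lower.

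Class II and complement genes went the other way. H2-Eb1, a class II chain of antigen-presenting cells, had 33.0, 36.1, 38.9 and 40.3 CPM in vector TAC and 13.8, 14.4, 11.2 and 13.6 CPM in PRODH TAC. Every PRODH library was lower (-1.48 ± 0.11, adjusted p = 5.31e-12), and Cd74, H2-Ab1 and H2-Aa were lower by a like amount (-1.42, -1.40 and -1.35). Among 28 chemokine and complement genes 3 were higher and 17 lower (median -0.67). The higher ones were Cxcl9 (1.02 ± 0.13) and Cxcl10 (0.90 ± 0.27), chemokines that interferon induces, and the complement shield gene Cd59a (0.22 ± 0.07). The lower ones included complement C3 (-1.38) and Serping1 (-1.43), the inhibitor of complement C1. These genes moved beside the fibroblast list given below and the myeloid marker list. In the latter 23 of 25 were lower and none higher (median -0.81). H2-Eb1 and H2-Aa are themselves members of the myeloid list, so their fall and that of the list are not separate observations.

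Genes of hypertrophy and wall stress were mostly lower with PRODH. Of 21 members 15 were lower and 3 higher (median -0.65). Myh7 (ENSMUSG00000053093), the slow myosin heavy chain of the fetal mouse ventricle, had 724, 596, 739 and 784 CPM in vector TAC and 20.9, 21.8, 23.3 and 22.8 CPM in PRODH TAC. Every vector library lay far above every PRODH library, and the difference was -5.0 ± 0.09 (adjusted p = 4.73e-27). Myh7 and Myh6 both had fractional counts in all 16 libraries, since the 2 myosins are alike in sequence. Nppa, which encodes atrial natriuretic peptide, had 2559, 2571, 3058 and 3119.9 CPM and 459.6, 422, 429 and 475 CPM in the same order, again with no overlap (-2.66 ± 0.09). Smaller falls, all called, were measured for the ankyrin repeat gene Ankrd1 (-0.57 ± 0.08), the calcineurin feedback gene Rcan1 (-1.10 ± 0.06) and the muscle LIM gene Csrp3 (-0.51 ± 0.08).

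The fetal list was not lower in full. Its 3 higher members encode actin and light chains of smooth or atrial muscle. Acta2, smooth muscle actin, had 48.1, 48.0, 57.5 and 55.6 CPM in vector TAC and 73.8, 69.4, 64.8 and 76.6 CPM in PRODH TAC. All PRODH libraries lay above the vector ones (0.45 ± 0.08, adjusted p = 3.08e-05), while the summed mural markers, Des among them, were lower. Myl7, the atrial regulatory light chain, had 17.9, 17.3, 20.9 and 20.8 CPM and 30.04, 31.7, 27.7 and 31.4 CPM, a difference of 0.65 ± 0.10, and Myl4, the atrial essential light chain, differed by 0.47 ± 0.08. Over 15 atrial and conduction genes 6 were higher and 5 lower, with no common direction. Their summed level, most of it Nppa, was 2708 to 3282 and 591 to 653 CPM in vector TAC and PRODH TAC.

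Promoters of the fetal genes were read for CATTCC on either strand, the core letters of the MCAT element that TEAD factors bind. Of the 15 lower members 13 have an entry, and 6 of these (46.2%) hold the letters in 250 bases. Of all 21 tested members 19 have an entry, and 8 of these (42.1%) hold them, a share close to that of the lower members. The letters occur in 14.4% of all promoters and 15.3% of those of all genes called lower. The list was chosen as fetal and hypertrophy genes, so its share describes the list and not the fall with PRODH. The stretches below show the match in capitals for genes named in this or the previous paragraphs and for Nppb and Acta1, which encode B-type natriuretic peptide and skeletal actin. Myh7 is at chr14:54994792-54994857 on the minus strand, Nppb at chr4:147985765-147985830 on the plus strand, Acta1 at chr8:123894786-123894851 on the minus strand and Ankrd1 at chr19:36120019-36120084 on the minus strand.
Myh7: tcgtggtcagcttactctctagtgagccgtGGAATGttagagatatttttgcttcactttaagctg
Nppb: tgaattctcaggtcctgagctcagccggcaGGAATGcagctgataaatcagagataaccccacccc
Acta1: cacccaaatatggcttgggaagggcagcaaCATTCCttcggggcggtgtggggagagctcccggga
Ankrd1: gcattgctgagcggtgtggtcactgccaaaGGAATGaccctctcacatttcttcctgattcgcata
These genes differed by -5.0, -1.16, -0.86 and -0.57 on the log2 scale.

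Z-disc and stretch-responsive genes, which anchor the sarcomere's actin filaments, were mostly lower (17 of 24, with 3 higher, median -0.49). Synpo2l, a Z-disc protein gene, had 227, 233, 255 and 256 CPM in vector TAC and 74.4, 74.0, 76.3 and 84.8 CPM in PRODH TAC. The PRODH values lay just above those of the sham libraries, 55.3 to 66.1 CPM, and the difference between the TAC groups was -1.65 ± 0.07 (adjusted p = 4.12e-18). The adult sarcomere itself was divided, with 5 of 21 members higher and 8 lower (median -0.12). Without vector TAC libraries 3 and 4 the counts were 6 and 4, without library 4 alone 5 were lower, and with an offset for gene length the counts were 4 and 5. Des, the intermediate filament of muscle, was the largest fall (-0.76 ± 0.08). The nebulette gene Nebl (0.81 ± 0.12) and Myh6 (0.49 ± 0.08), the fast adult myosin, were among the rises. Troponin genes Tnnt2 and Tnni3 were not called (-0.12 and -0.01). Ttn, the giant spring protein, had 927, 943, 825 and 827 CPM in vector TAC and 1313, 1377, 1516 and 1345 CPM in PRODH TAC. The groups did not overlap (0.66 ± 0.08, adjusted p = 1.70e-07), but Ttn is among the longest genes, and with an offset for gene length its difference was 0.17 (adjusted p = 0.0685).

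Calcium handling genes, which load and release the store that drives each beat, were higher as a group. Of 19 members 15 were higher and none was lower (median 0.51), and with the length offset 14 were higher and 1 lower. Atp2a2, the pump that refills the store, had 3528, 3351, 3271 and 3361 CPM in vector TAC and 5269, 5069, 5375 and 5475 CPM in PRODH TAC. All PRODH libraries were higher than all vector ones (0.65 ± 0.07, adjusted p = 7.18e-09), while the sham libraries had 6781 to 8258 CPM. The release channel Ryr2 differed by 0.56 ± 0.07, the pump inhibitor Pln by 0.58 ± 0.08 and the channel anchor Trdn by 0.81 ± 0.17. Trdn had 160.4, 204, 109.5 and 107 CPM in the vector group, where libraries 3 and 4 were the low ones, and 274, 264, 248 and 234 CPM in the PRODH group. The exchanger Slc8a1 (-0.01) and the store buffer Casq2 (0.14) were not called. Phkg1, a phosphorylase kinase subunit, led the list and is counted in the glycolysis and glucose list too, where it was also the largest rise. It had 2.85, 2.81, 3.36 and 3.31 CPM in vector TAC and 9.89, 10.2, 10.1 and 10.6 CPM in PRODH TAC. Its difference was 1.73 ± 0.10 (adjusted p = 3.62e-14), with fractional counts in 15 libraries.

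Ion channels followed the same direction. Of 20 potassium channel genes 13 were higher and 3 lower (median 0.46). Kcnj3, a subunit of the acetylcholine-gated channel, had 19.1, 19.6, 14.6 and 14.9 CPM in vector TAC and 42.3, 40.3, 44.9 and 42.0 CPM in PRODH TAC. The PRODH group was higher in each library (1.31 ± 0.10, adjusted p = 1.44e-11), and Kcnd2, which carries the transient outward current, differed by 1.18 ± 0.11. The inward rectifier gene Kcnj2 stood at 1.19 ± 0.12 and the modifier Kcnv2 at 1.76 ± 0.16. Those lower were Kcnj14 (-1.35 ± 0.25), Kcna5 (-0.57 ± 0.09) and Kcnj8 (-0.34 ± 0.09), the last a mural marker as well. Of 20 sodium channel, junction and pacemaker genes 10 were higher and 5 lower. Scn4b, a sodium channel beta subunit, had 7.57, 5.93, 8.91 and 7.86 CPM in vector TAC and 21.6, 22.7, 22.1 and 25.2 CPM in PRODH TAC. That was a difference of 1.596 ± 0.11 with no overlap (adjusted p = 7.48e-13). Without vector TAC libraries 3 and 4 the list held 8 higher and 2 lower, and 3 were lower without vector TAC library 3 or PRODH TAC library 1 or 3, and under other scalings.

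**Figure D3:**
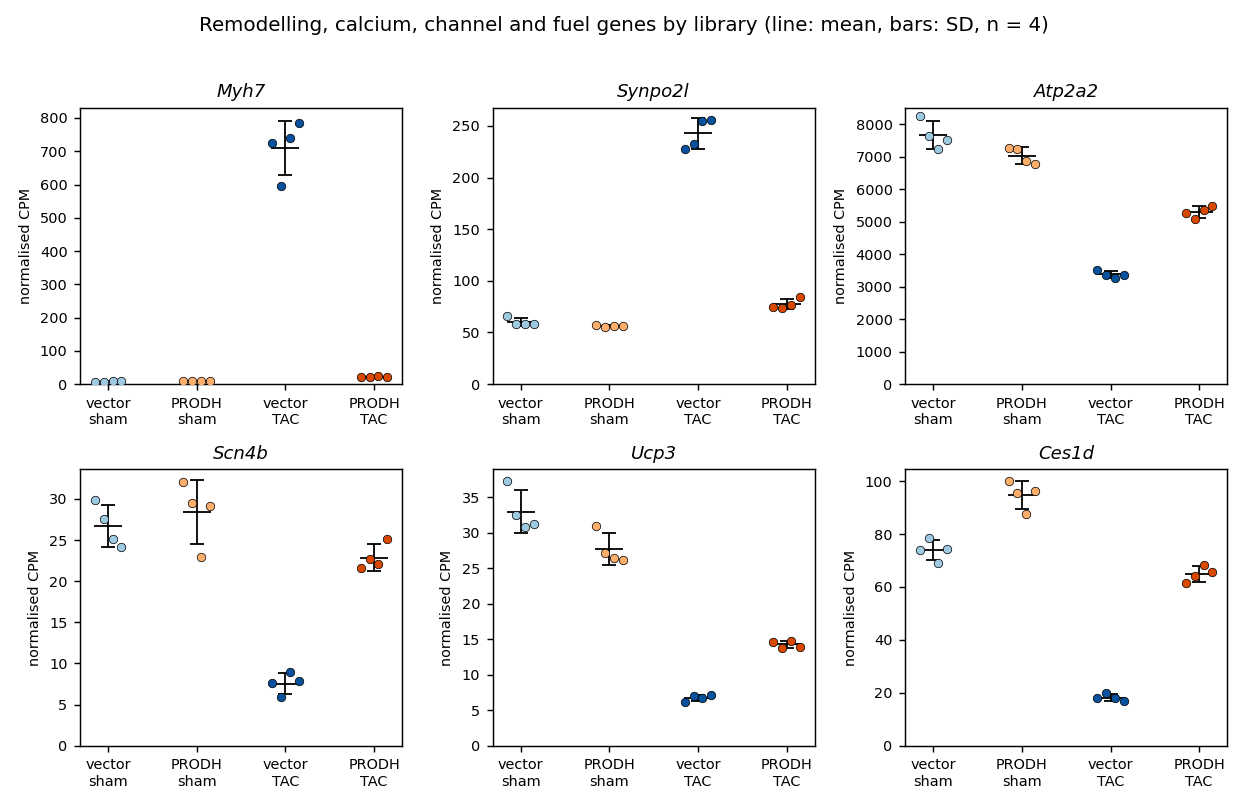
Normalised CPM (y axis, from 0) of 6 genes in each of the 16 libraries by virus and operation, with the mean and SD of 4 libraries. Myh7 and Synpo2l are high in vector TAC alone, while Atp2a2, Scn4b, Ucp3 and Ces1d are lowest in vector TAC and higher in PRODH TAC.

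Receptors and signalling genes were divided, with 10 of 33 higher and 9 lower (median -0.01). With vector TAC libraries 3 and 4 left out, these counts were 6 and 8. The alpha and beta-1 adrenergic receptors of cardiomyocytes were higher, with Adra1a at 0.93 ± 0.16 and Adrb1 at 0.58 ± 0.15. Ednrb, an endothelin receptor, had 20.1, 18.7, 20.8 and 19.6 CPM in vector TAC and 8.16, 7.44, 6.01 and 6.34 CPM in PRODH TAC. It was lower in every PRODH library (-1.50 ± 0.11, adjusted p = 2.80e-12). Ace, which makes angiotensin II and is made mainly by endothelium, had 75.3, 73.7, 106 and 112 CPM and 33.6, 35.6, 31.5 and 30.7 CPM. Vector libraries 3 and 4 were its highest, and even libraries 1 and 2 lay above all PRODH libraries (-1.48 ± 0.13, adjusted p = 2.43e-08).

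Genes of fuel oxidation were higher in PRODH TAC. In fatty acid use 23 of 35 members were higher and 3 lower (median 0.23). In the citric acid cycle and pyruvate dehydrogenase 17 of 30 were higher and 1 lower (median 0.23), and in branched-chain amino acid breakdown 15 of 23 were higher and 2 lower (median 0.31). All 3 shares of higher genes were above the 18.5% of all genes, though the medians are small. Since the lists were chosen with earlier results of these data known, that excess is not a result by itself. Leaving out vector TAC libraries 3 and 4, the higher counts were 16, 14 and 11. With the length offset they were 27, 23 and 15.

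Acsl1, which activates long-chain fatty acids, had 245, 219, 198 and 219 CPM in vector TAC and 327, 319, 342 and 350.2 CPM in PRODH TAC. The groups did not overlap (0.60 ± 0.07, adjusted p = 3.02e-08). Ucp3, an uncoupling protein gene that fatty acids induce, had 6.13, 6.97, 6.71 and 7.21 CPM and 14.6, 13.8, 14.8 and 14.0 CPM, again apart (1.08 ± 0.09, adjusted p = 6.98e-11). Both PRODH values stayed below the sham libraries, which had at least 411 CPM of Acsl1 and 26.2 of Ucp3. Cpt1b, the muscle form of the enzyme that admits fatty acids to mitochondria, differed little (0.18 ± 0.07), with overlap and an adjusted p of 0.0397 that was lost without vector TAC library 1 (0.111) or 2 (0.102), or PRODH TAC library 3 (0.0746) or 4 (0.0713). The lower members were Angptl4 (-0.94 ± 0.13), which inhibits lipoprotein lipase, Ucp2 (-0.80 ± 0.09) and the liver form Cpt1a (-0.27 ± 0.07). Ces1d, a carboxylesterase that splits triglyceride, was among the 15 largest rises and had 18.1, 20.1, 17.9 and 16.8 CPM in vector TAC and 61.5, 64.1, 68.4 and 65.7 CPM in PRODH TAC. The vector group was lower throughout (1.83 ± 0.07, adjusted p = 2.18e-18).

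The citric acid cycle rises were led by Dld (0.63 ± 0.10), the shared subunit of the 2-oxoacid dehydrogenases, and the phosphatase Pdp1 (0.63 ± 0.11), which turns pyruvate dehydrogenase on. Sdha, a subunit of succinate dehydrogenase, had 434, 450.0, 362 and 357 CPM in vector TAC and 575, 539, 578 and 580.1 CPM in PRODH TAC. Vector libraries 3 and 4 were the lowest, but all PRODH libraries lay above all vector ones (0.50 ± 0.08, adjusted p = 4.10e-06). Sdhb, Sdhc and Sdhd, the other subunits, were not called (0.01, -0.03 and 0.10), and Idh2 was lower (-0.26 ± 0.07). In branched-chain breakdown the phosphatase Ppm1k, which activates the pathway's dehydrogenase, differed by 0.98 ± 0.12 and its kinase Bckdk by -0.22 ± 0.09. The Bckdk call was lost under most alternatives, and Ppm1k had fractional counts in all 16 libraries.

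Regulators of these programmes were higher too, 10 of 20 with 2 lower. Ppargc1a, the coactivator of mitochondrial genes, had 35.1, 37.1, 28.8 and 30.1 CPM in vector TAC and 54.1, 49.1, 54.1 and 48.7 CPM in PRODH TAC. The lowest PRODH library stood above the highest vector library (0.65 ± 0.11, adjusted p = 5.69e-05). Ppara, the fatty acid-sensing receptor, differed by 1.00 ± 0.19 and Ppargc1b by 0.89 ± 0.13, while Pparg, the adipose form, was lower (-0.51 ± 0.11). Lipid synthesis leaned the other way, with 5 of 22 higher and 10 lower, including the desaturase Scd1 (-0.97 ± 0.18). When vector TAC libraries 3 and 4 were dropped, the lower count was 7.

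The respiratory chain did not share this direction. In complex I 6 of 36 nuclear subunits were higher and 4 lower (median -0.06), and in complexes III, IV and V 6 of 38 were higher and 6 lower (median -0.10). Both are below the 43.1% of all genes called in either direction. With vector TAC libraries 3 and 4 left out, the counts were 3 higher and 0 lower in complex I and 1 higher and 2 lower in the others. The lower count of complexes III, IV and V was 3 without vector TAC library 2 and 1 without vector TAC library 3, PRODH TAC library 1 or PRODH TAC library 2. Scaled by library size alone, 11 genes of these complexes and 6 of the mitochondrial genome were higher, and without a filter 7 of complex I were lower. Ndufs1, the largest core subunit of complex I, was higher, with 248, 272, 189 and 183 CPM in vector TAC and 367, 345, 358 and 343 CPM in PRODH TAC. Libraries 3 and 4 of the vector group were low, and no vector library reached the PRODH group (0.66 ± 0.10, adjusted p = 6.36e-06). Cox4i1, a subunit of cytochrome oxidase, had 916, 939, 1145 and 1119.6 CPM and 826, 784, 876 and 981 CPM, overlapped and was not called (-0.25 ± 0.10, adjusted p = 0.0532). It was called lower without a filter (adjusted p = 0.0104), at a minimum count of 50 (0.0426) and without vector TAC library 1 (0.0296) or 2 (0.0435) or PRODH TAC library 4 (0.041) (edgeR). Protein genes of the mitochondrial genome were mostly not called (2 of 13 higher, none lower), with mt-Nd4 at 0.13 ± 0.11, or 0.30 and called without vector TAC library 2 (adjusted p = 0.0111).

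These subunit genes are short, and length moved with the groups. The median gene model length was 747.5 bases in complex I and 669.5 bases in complexes III to V, against 2824 over all tested genes. The 12764 tested protein-coding genes were ranked by length in 5 equal groups. The shortest group had 10.9% higher and 32.5% lower calls and a median of -0.16, and the longest had 27.4% higher and 20.3% lower calls and a median of 0.06. In each PRODH TAC library the deviation from the mean of all libraries rose with gene length (Spearman rho across genes of 0.31 to 0.39), against -0.08 to 0.12 in vector TAC, -0.34 to -0.03 in vector sham and -0.39 to 0.03 in PRODH sham. Genes are not independent replicates, and these values describe the libraries. With an offset for gene length fitted per library, complex I held 18 higher and 1 lower, complexes III, IV and V 17 higher and none lower, and the mitochondrial genome 6 higher and none lower, with medians of 0.11, 0.09 and 0.26. The counts of these 3 lists thus depend on how length is treated, as do those of the proteasome list below and the class I list above.

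**Figure D4:**
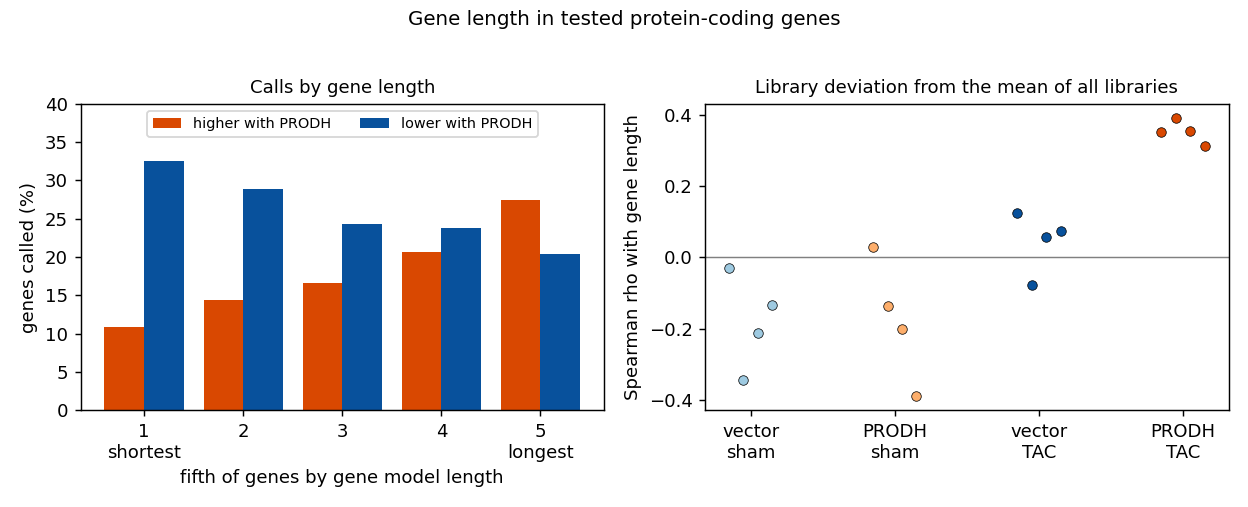
Left, percent of tested protein-coding genes called higher or lower with PRODH after TAC (y axis) in 5 equal groups by gene model length (x axis). Right, Spearman rho with gene length (y axis) of each library's deviation from the mean of 16 libraries, by group. Higher calls go from 10.9% to 27.4% from short to long genes, and the 4 PRODH TAC libraries have the highest rho.

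Quality control of mitochondria gave 11 higher and 6 lower of 27, with the fusion gene Opa1 higher (0.60 ± 0.07) and the mitophagy receptor Bnip3 lower (-0.45 ± 0.07). Leaving out vector TAC libraries 3 and 4, these counts were 7 and 3. In proline metabolism 3 of 10 measured members were higher and 2 lower (2 higher and 1 lower without vector TAC libraries 3 and 4). Aldh4a1, the step after Prodh, had 35.6, 30.9, 35.9 and 32.4 CPM in vector TAC and 45.4, 45.1, 49.8 and 47.8 CPM in PRODH TAC. It was higher in all 4 PRODH libraries (0.48 ± 0.08, adjusted p = 8.77e-06) and below the sham libraries, which had at least 52.8 CPM. Aldh18a1, which starts proline synthesis, was lower (-0.51 ± 0.13), a call lost without vector TAC libraries 3 and 4 (-0.32, adjusted p = 0.128), and the proline transporter Slc38a2 was lower (-0.50 ± 0.07). Pycr1, which acts in the last step of proline synthesis, was not called (-0.35). Oat, which links ornithine to this pathway, was called at 0.16 ± 0.06, but not under several alternatives.

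Of 13 glutamate and glutamine genes 5 were higher and 3 lower. Slc1a5, a glutamine carrier of the cell membrane, had 12.9, 13.0, 15.2 and 12.7 CPM in vector TAC and 4.95, 6.49, 5.32 and 5.20 CPM in PRODH TAC. Each PRODH library was well below each vector library (-1.29 ± 0.12, adjusted p = 1.11e-09). The mitochondrial glutamate carrier Slc25a22 was higher (7.44, 7.95, 8.23 and 7.53 CPM against 13.6, 13.6, 14.1 and 14.96 CPM, 0.85 ± 0.09, adjusted p = 5.12e-09), as was the alanine transaminase Gpt2 (0.78 ± 0.09). Glul, which makes glutamine, was lower (-0.24 ± 0.06), and glutamate dehydrogenase Glud1 was not called (0.09).

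Of 20 creatine and NAD genes 7 were higher and 3 lower (median 0.14). Nampt, which makes NAD from nicotinamide, had 84.1, 89.2, 63.5 and 66.7 CPM in vector TAC and 164, 153, 163 and 149 CPM in PRODH TAC. It was higher in every PRODH library (1.05 ± 0.09, adjusted p = 4.43e-11). Nmrk2, the muscle kinase for nicotinamide riboside, had 24.9, 28.9, 26.5 and 24.0 CPM and 4.26, 4.01, 4.87 and 3.86 CPM, so it was lower in every PRODH library (-2.62 ± 0.10, adjusted p = 1.26e-18). Glycolysis and glucose genes were divided (10 higher and 11 lower of 31): the insulin-regulated transporter Slc2a4 was higher (0.52 ± 0.08) and the basal transporter Slc2a1 lower (-0.72 ± 0.12), and the heart hexokinase Hk2 was higher (0.53 ± 0.07) and Hk1 lower (-0.35 ± 0.08). Pfkfb1 (1.52 ± 0.17) and Pfkfb2 (1.04 ± 0.17), which make the activator of phosphofructokinase, were higher, and Pfkfb3 was lower (-0.44 ± 0.11).

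**Figure D5:**
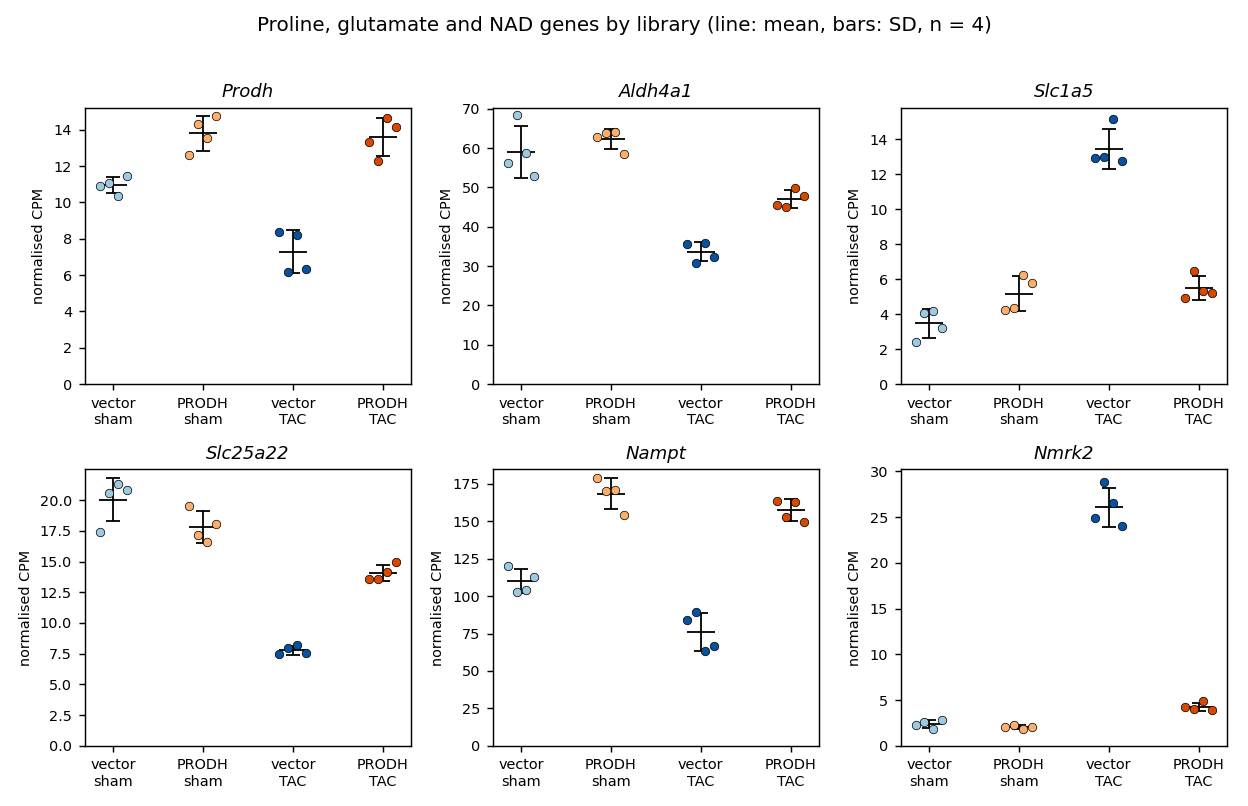
Normalised CPM (y axis, from 0) of 6 genes in each of the 16 libraries by virus and operation, with the mean and SD of 4 libraries. Prodh, Aldh4a1, Slc25a22 and Nampt are higher in PRODH TAC than in vector TAC in every library, and Slc1a5 and Nmrk2 are high in vector TAC alone.

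Genes of the extracellular matrix were lower in PRODH TAC with hardly an exception. Of 23 collagen genes 22 were lower (median -1.46), of 19 collagen-modifying enzymes 18 (-0.76), of 20 matricellular genes all 20 (-1.73) and of 26 proteoglycan and elastic fibre genes 24 (-1.42), and none in these 4 lists was higher. The share of all genes that were lower is 24.6%. Comp, a matrix protein of tendon and scar, had 33.9, 27.7, 37.0 and 40.3 CPM in vector TAC and 0.845, 0.991, 1.10 and 1.10 CPM in PRODH TAC. The sham libraries had 0.292 to 0.920 CPM, a range that the lowest PRODH TAC library fell in and the other 3 lay just above, and the TAC groups differed with an adjusted p of 9.77e-22. Cilp, a matrix protein that binds TGF-beta, had 142, 131, 166 and 165 CPM and 14.96, 18.2, 13.5 and 13.8 CPM, a difference of -3.32 ± 0.10 (adjusted p = 1.63e-20). Lox, which crosslinks collagen, had 28.2, 28.4, 27.2 and 26.3 CPM in vector TAC and 2.41, 2.89, 1.71 and 2.36 CPM in PRODH TAC, again with no overlap (-3.55 ± 0.14, adjusted p = 1.06e-18).

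Within the collagens the size of the difference varied. The minor fibrillar chain Col11a1 (-4.53 ± 0.48), the short-chain Col8a2 (-4.33 ± 0.27) and the fibril-associated Col12a1 (-4.02 ± 0.18) led. The main fibrillar chains Col1a1 (-2.44 ± 0.11) and Col3a1 (-1.67 ± 0.09) lay between, and the basement membrane chains Col4a1 (-0.55 ± 0.10), Col4a2 (-0.72 ± 0.10) and Col18a1 (-0.34 ± 0.13) were the smallest of those called. Col4a5 was not called (-0.17). Basement membrane and integrin genes gave 4 higher and 14 lower of 24, or 4 and 9 without vector TAC libraries 3 and 4. Integrin Itgb6 was higher (1.27 ± 0.11) and the fibroblast integrin Itga11 lower (-2.02 ± 0.23).

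Proteases and growth factors of the matrix moved with it. Of 25 proteases and inhibitors 22 were lower and 2 higher (median -1.19), led by Adamtsl2 (-2.39 ± 0.12), Timp1 (-2.34 ± 0.18) and Mmp2 (-1.93 ± 0.10), while Mmp15 and Adamts15 were higher (0.39 and 0.46). The Adamts15 call was lost without vector TAC libraries 3 and 4 (0.38, adjusted p = 0.083), where the list held 1 higher and 19 lower. Of 35 TGF-beta, Wnt and cardiokine genes 27 were lower and 1 was higher (median -1.16). The ligand genes Tgfb2 (-1.51 ± 0.10), Tgfb3 (-1.25 ± 0.10) and Tgfb1 (-0.87 ± 0.10) were all lower, and the Wnt antagonists Sfrp2 (-3.65 ± 0.16), Frzb (-2.70 ± 0.14) and Sfrp1 (-2.43 ± 0.13) were among the largest falls. Fgf16, a growth factor of cardiomyocytes, was the member called higher (0.39 ± 0.12). Angptl7, another of the 15 largest falls, had 13.8, 15.4, 13.9 and 13.9 CPM in vector TAC and 2.45, 1.86, 1.34 and 1.57 CPM in PRODH TAC. In the sham hearts it had 0.213, 0.254, 0.121 and 0.159 CPM with the vector and 0.642, 0.561, 0.688 and 0.591 CPM with PRODH.

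The markers of other cell types that moved with these lists were 17 lower and none higher of 18 for fibroblasts (median -1.27) and 19 lower and none higher of 20 for endothelium (median -0.54). The activation gene Cthrc1, of which vector TAC had 4.85, 4.94, 4.46 and 4.50 CPM and PRODH TAC 0.201, 0.124, 0.203 and 0.236 CPM, differed by -4.57 ± 0.32. Genes of resting fibroblasts were also lower, with Tcf21 at -1.07 ± 0.20, Pdgfra at -1.18 ± 0.11 and Clec3b at -0.50 ± 0.14, and Thy1 was not called (-0.34). Among endothelial genes Plvap (-2.10 ± 0.13), of fenestrated vessels, and Vwf (-1.35 ± 0.17) were lowest, and the pan-endothelial Cdh5 was at -0.25 ± 0.09. Mural genes were divided (2 higher and 6 lower of 14). Relative to the sham hearts, whose 18 fibroblast genes summed to 228 to 368 CPM, the PRODH TAC libraries with 432 to 556 CPM stayed higher.

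Stress and acute-response genes were mostly lower. Among 25 immediate early genes, which cell isolation is also known to induce, 21 were lower and none higher (median -0.66), from Maff (-2.07 ± 0.16) and Egr3 (-1.87 ± 0.22) to Fos (-0.27 ± 0.07). Jun, Atf3, Btg2 and Klf6 were not called. Glucocorticoid targets and metallothioneins gave 12 lower and 2 higher of 17 (median -0.64). Fkbp5, a chaperone of the glucocorticoid receptor, had 26.4, 26.0, 28.3 and 24.7 CPM in vector TAC and 8.25, 8.18, 7.23 and 7.91 CPM in PRODH TAC. The PRODH values fell within the range of the sham libraries, 7.12 to 8.78 CPM, and the TAC groups differed by -1.74 ± 0.08 (adjusted p = 1.61e-16). The receptor gene Nr3c1 itself was higher (0.38 ± 0.07).

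Cdkn1a, a cell cycle inhibitor that p53 and glucocorticoids induce, had 56.3, 55.8, 65.1 and 60.9 CPM in vector TAC and 21.5, 21.2, 20.9 and 18.5 CPM in PRODH TAC. Every PRODH library was lower (-1.53 ± 0.08, adjusted p = 2.94e-15), and the sham hearts showed the same order, with 28.2, 33.995, 32.2 and 31.5 CPM for the vector and 10.4, 12.2, 12.8 and 14.5 CPM for PRODH. Of 23 p53 targets and inhibitors 3 were higher and 7 lower, a share of lower genes near that of all genes. Targets of ATF4, the amino acid stress factor, gave 2 higher and 9 lower of 26. Nupr1 (-2.95 ± 0.19) and Gdf15 (-2.57 ± 0.25), a stress cytokine, were the largest falls, while the mitochondrial folate enzyme Aldh1l2 was higher (1.26 ± 0.18) with fractional counts in all 16 libraries. Endoplasmic reticulum chaperones gave 3 higher and 10 lower of 20, with the master chaperone Hspa5 not called (0.03).

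Heat shock genes were divided. The mitochondrial chaperones Hspd1 (0.59 ± 0.09), Hspa9 (0.40 ± 0.08), Hspe1 (0.23 ± 0.08) and Trap1 (0.27 ± 0.07) were higher, and the cytosolic Hspa1b (-0.83 ± 0.07), Hspa8 (-0.44 ± 0.07) and Hspb1 (-0.64 ± 0.08) were lower, within a list of 7 higher and 8 lower. The other higher members were Hsf2, Dnajb1 and Dnajb5, which are not mitochondrial. These members were grouped after their values were seen. Hspa1a and Hspa1b share reads, with fractional counts in all 16 libraries. Antioxidant and iron genes gave 6 higher and 15 lower of 34. The peroxiredoxin genes Prdx1 (0.44 ± 0.09) and Prdx3 (0.35 ± 0.07) and the mitochondrial Sod2 (0.28 ± 0.06) were among the higher, and the secreted Sod3 (-0.96 ± 0.11) and Gpx3 (-1.31 ± 0.08) and the cytosolic Sod1 (-0.28 ± 0.09) among the lower. The iron exporter Slc40a1 was higher (0.93 ± 0.10) and the ferritin chains Fth1 (-0.45 ± 0.08) and Ftl1 (-0.61 ± 0.09) lower.

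Clock genes held 6 higher and 8 lower of 20, in a pattern that was not a common shift. Arntl, the activator of the core loop, had 6.76, 6.91, 7.44 and 6.72 CPM in vector TAC and 2.41, 2.77, 2.44 and 3.23 CPM in PRODH TAC. It was lower in all PRODH libraries (-1.36 ± 0.14, adjusted p = 5.35e-09), and its partner Npas2 was called lower with overlapping groups (-0.74 ± 0.27). The output factor Tef had 48.0, 41.5, 50.4 and 45.6 CPM and 73.4, 75.8, 78.3 and 83.9 CPM and was higher (0.75 ± 0.07, adjusted p = 1.12e-09), with Per3 (0.70 ± 0.12), Hlf (0.46 ± 0.10) and Dbp (0.33 ± 0.09). The repressors Nr1d1 (-0.78 ± 0.10) and Nr1d2 (0.90 ± 0.11) went in opposite directions. The labels do not state the time of day of collection.

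Ribosomal protein genes were lower by a small amount. Of 41 members 33 were lower and 1 was higher (median -0.41). They are short, with a median model length of 835 bases, and with the length offset 27 were lower and 2 higher with a median of -0.22. Rpl3 and its muscle-specific counterpart Rpl3l went opposite ways: Rpl3 had 152, 159, 169 and 170.4 CPM and 81.6, 86.2, 78.6 and 90.8 CPM (-0.95 ± 0.07), and Rpl3l 68.0, 66.96, 74.3 and 73.4 CPM and 85.0, 82.7, 88.4 and 102 CPM (0.34 ± 0.08, adjusted p = 7.79e-04). Cytoskeleton and tubulin genes were lower in 23 of 29 and higher in 1, among them Tubb2a (-1.06 ± 0.09) and the intermediate filament gene Vim (-0.93 ± 0.08), while Tuba4a, a tubulin of mature muscle, was higher (0.49 ± 0.07). Proteasome genes were mostly not called (5 higher and 5 lower of 30, or 3 higher and 1 lower without vector TAC libraries 3 and 4). With the length offset 9 higher and 2 lower were called, other scalings gave 3 lower, and either count was 3 without some single libraries (vector TAC 1, 3 or 4, PRODH TAC 1, 2 or 3).

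Few cell cycle genes were called, and imprinted growth genes were mostly lower. Of 34 cell cycle genes 5 were higher and 2 lower, or 5 higher and 0 lower without vector TAC libraries 3 and 4, and 3 were higher without vector TAC library 2 or PRODH TAC library 2. Mki67, a gene of dividing cells, had 5.23, 5.20, 3.77 and 3.41 CPM in vector TAC and 9.13, 7.85, 6.01 and 7.01 CPM in PRODH TAC and was higher (0.76 ± 0.15, adjusted p = 2.16e-04), as was cyclin Ccne2 (1.26 ± 0.17), while Cdk1 and Ccnb1 were not called (0.08 and -0.10). Of 13 imprinted growth genes 10 were lower and 1 was higher (median -0.55), with the non-coding RNAs H19 (-1.22 ± 0.11) and Meg3 (-1.23 ± 0.20) lower and Mest higher (0.45 ± 0.14).

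Whether the viruses differed equally after TAC and after sham was tested as an interaction, which called 3764 of 14066 genes (26.8%), 1540 with a value above 0 and 2224 below 0. For Prodh the TAC difference exceeded the sham difference by 0.56 ± 0.14 (log2 ± SE, adjusted p = 0.00373). Myh7 gave -5.41 ± 0.14, Atp2a2 0.77 ± 0.10 and Ucp3 1.33 ± 0.12, so their virus differences after TAC and sham were not equal (adjusted p = 6.99e-23, 5.46e-07 and 1.38e-09). Irf7 (0.88 ± 0.12) also differed more after TAC, at an adjusted p of 3.61e-06, with a sham difference of 1.42. Ifit3 (0.23 ± 0.13, adjusted p = 0.21), Cdkn1a (-0.20 ± 0.12, 0.254) and Arntl (0.56 ± 0.23, 0.0738) were not called, so no change of their virus difference with the operation was detected. Their sham differences were 1.79, -1.34 and -1.92.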

How the data were processed

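Values are the authors' estimated counts for each gene model, made from the reads by an aligner and counter not given in the sources used here, and deposited unnormalised. Per the labels' protocols, libraries came from TRIzol-extracted, DNase-treated RNA and a SMARTER mRNA-Seq kit. Counts were rounded and tested with edgeR 4.0.16 (R 4.3.3): filterByExpr (minimum count 10, total 15), TMM scaling, robust quasi-likelihood fit of 4 groups on 16 libraries, prior count 0.125, Benjamini-Hochberg adjustment, threshold 0.05. Normalised CPM were computed here. Fractional counts occurred in 9538 gene models (16.7%).

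The members and all 51 gene lists were chosen with earlier results of these data known. Named genes were Prodh, landmark genes, up to 3 called members per list and direction, the 15 largest rises and falls (at least 5 CPM, no overlap) and 8 of each with at least 200 CPM; other list members named were chosen after their values were seen. Alternatives covered scaling, filter, DESeq2 1.42.0, TAC libraries only, replicate block and left-out libraries; the length offset was added after seeing the data. Gene types and mitochondrial copies follow GENCODE M21, promoters RefSeq GRCm38.p6. The test was tried on simulated data. Some list members are not reported here.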

Additional observations from a re-analysis of the deposited data

Results flagged for a closer look

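Among 274 named genes, 32 of 548 gene and group combinations had 1 library far from the other 3 (a gap to the nearest of the others above Dixon's critical value for 4 samples at 95%). Chance alone sets about 5% of such combinations apart. The CPM of the library is given with the range of the other 3. In PRODH TAC 2 these were Sdha at 539 (575 to 580.1), Upk3b at 4.05 (2.17 to 2.40), Igtp at 37.3 (39.3 to 39.7), H2-Q7 at 32.5 (28.9 to 29.5), Cd59a at 35.5 (38.2 to 38.7), Gdf15 at 0.289 (0.684 to 0.731), Hspd1 at 183 (194 to 196). In vector TAC 3 these were Slc1a5 at 15.2 (12.7 to 13.0), Ndufa11 at 172 (153 to 154). In PRODH TAC 4 these were Tcap at 629.7 (579 to 585), Scn4a at 9.605 (7.77 to 8.003), Lpin1 at 65.6 (57.6 to 58.8), Bcat1 at 0.197 (0.362 to 0.372), Gpx3 at 93.2 (84.9 to 85.6), Ccnd3 at 26.4 (21.3 to 21.98). In vector TAC 4 these were Adra1a at 2.82 (2.29 to 2.34), Upk1b at 1.68 (0.944 to 1.06), Cxcl9 at 2.55 (4.14 to 4.42). In PRODH TAC 3 these were Npr3 at 7.52 (8.72 to 8.93), Col12a1 at 0.609 (1.14 to 1.17). In vector TAC 2 these were Lpin1 at 35.3 (43.5 to 45.0), Pparg at 7.33 (8.60 to 8.64), Cycs at 553 (437 to 455), Cox5a at 365 (319 to 324), Pfkp at 54.7 (60.8 to 61.1), Sfrp2 at 12.4 (10.6 to 10.8), Nr2f2 at 8.21 (7.97 to 7.997), Mest at 6.55 (8.42 to 8.70), Gpr22 at 10.97 (6.98 to 7.60), Angptl7 at 15.4 (13.8 to 13.9), Syn3 at 24.4 (3.83 to 7.15). In PRODH TAC 1 this was Tubb2a at 10.7 (11.7 to 11.9).

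Prodh and the landmark genes were tested for a difference between the virus effect after TAC and after sham. Of these 34 of 43 passed (edgeR interaction term, adjusted p under 0.05), against 26.8% of all genes. The landmark genes were chosen with earlier results of these data known, so a share above that of all genes is not a result. The TAC effect minus the sham effect, in log2, was above 0 for 17 genes: Prodh 0.56, Myh6 0.48, Atp2a2 0.77, Pln 0.55, Ryr2 0.68, Kcnd2 1.37, Kcnj3 1.24, Ucp3 1.33, Acadm 0.30, Pdk4 0.74, Ppargc1a 0.60, Sdha 0.53, Ndufs1 0.71, Aldh4a1 0.40, Irf7 0.88, Hspa5 0.42, Mki67 1.20. It was below 0 for 17: Myh7 -5.41, Nppa -2.27, Nppb -0.70, Acta1 -0.81, Ankrd1 -0.34, Glul -0.50, Postn -2.28, Col1a1 -2.48, Col3a1 -1.58, Timp1 -2.40, Tgfb2 -1.66, Pecam1 -0.56, Pdgfra -1.39, Cd68 -0.81, Nr1d1 -0.47, Dbp -1.05, Atf4 -0.34.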

How the results depend on the processing

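Across 18 alternatives to the fit, Prodh kept its call, at 0.82 to 0.98 on the log2 scale. The number of genes called ran from 4258, without vector TAC libraries 3 and 4, to 6125, with the replicate block. The counts of genes with a difference of at least 1 log2 moved by more than 1.5 times only with a minimum count of 50, to 186 higher and 411 lower, where 10804 genes were tested. Leaving out 1 library at a time gave 5279 to 6089 called genes, 2234 to 2690 higher, 2996 to 3444 lower and 3243 to 4110 for the interaction. Without vector TAC libraries 3 and 4 together the counts were 1751 higher and 2507 lower. The length offset, chosen after seeing the data, gave 3044 higher and 3058 lower. The median of all genes stayed between -0.04 and 0.00. Of 275 named genes that were called, 241 kept call and sign in all alternatives and 34 lost the call in at least 1. Vector TAC and PRODH TAC libraries of the same replicate number had deviations that correlated at 0.07, -0.09, -0.09 and 0.02, 1 of 4 best with its own number. These 4 pairs are too few to exclude a source of spread shared by replicate number. The replicate block gave 6125 called genes, 2643 higher and 3482 lower. With the block 9 genes of complex I and 12 of complexes III, IV and V were lower, against 4 and 6, and Cox4i1 was called lower (edgeR adjusted p = 0.0173). With 4 libraries per group and rounded estimated counts, genes with few counts and near copies are the least certain.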

Other observations

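Genes outside the lists showed 2 further groups, both chosen after their values were seen. Of 269 tested KRAB zinc finger genes, which encode repressors of transposable elements and other targets, 102 (37.9%) were higher and 5 (1.86%) lower with PRODH after TAC, with a median log2 fold change of 0.34, against 18.5% and 24.6% of all genes. On chromosome 2 it was 21 higher and 2 lower of 37 (median 0.68). Zfp970 had 9.87, 8.16, 6.92 and 7.05 CPM in vector TAC and 28.1, 28.3, 24.4 and 25.1 CPM in PRODH TAC, and Zfp612 had 2.68, 3.85, 3.04 and 2.44 CPM and 9.17, 8.96, 8.12 and 7.72 CPM. Many of these genes are near copies, so the division of reads among them is uncertain. Of 265 long intergenic non-coding RNAs 78 were higher and 27 lower (median 0.26), and of 213 antisense genes 49 were higher and 31 lower. The labels do not state whether counting used strand, so antisense reads and those of the partner gene cannot be told apart.

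Among the largest rises outside the lists, Gpr22, a receptor gene of cardiomyocytes, had 6.98, 10.97, 7.60 and 7.32 CPM in vector TAC and 31.3, 28.6, 27.0 and 27.1 CPM in PRODH TAC (1.80 ± 0.19, edgeR adjusted p = 2.05e-06). Klhl33 had 2.98, 2.86, 2.41 and 2.01 CPM and 10.1, 9.67, 10.8 and 9.37 CPM (1.95 ± 0.13). Lrrc15, elsewhere a gene of activated fibroblasts, had 3.74, 2.03, 3.56 and 3.09 CPM and 9.61, 10.9, 11.3 and 10.9 CPM (1.77 ± 0.14), while 17 of 18 fibroblast markers were lower.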
